A study of Mus musculus with 8 samples.

Results

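Cancer cells from mouse small intestine organoids were compared after growing together with wild-type (WT) cells and after growing alone, to describe how stable their expression profile was on mixing and what size of change the data leave no room for. The comparison used 4 of the 8 libraries of the series. They were chosen by their labels: mixed cancer, wells A04 and A08, against pure cancer, wells A03 and A07. The cancer cells came from Villin-CreERT2 mice, strain C57BL/6 (F6), with alleles that include Apc fl/fl and Tr53 fl/R172H (Trp53 in current nomenclature). In this model the Cre recombinase is driven by the Villin promoter, which is active in intestinal epithelium. The WT cells came from C57BL/6 mice with the mTmG reporter. Mixed cultures were seeded with 2 WT cells for each cancer cell. All groups were grown in the same basement membrane extract and the same medium with EGF, Noggin and R-spondin. On day 3 after mixing live single cells were sorted from pure and mixed cultures by colour, red mTomato for WT cells and green Dendra2 for cancer cells, and bulk RNA was sequenced with CEL-Seq, which reads a tag near the 3' end of each transcript. The mm10 genome build was used.

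Cell competition is the removal of viable cells from a tissue by fitter neighbours. Apc is part of the complex that destroys β-catenin, so that its loss turns on Wnt target genes, and mutant p53 loses its normal target genes. Intestinal epithelium under damage can leave its adult stem cell program for a fetal-like repair state, which is marked by Ly6a (Sca-1), annexins and targets of the coactivator YAP.

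The 4 cancer libraries differed in depth. Reads assigned to genes numbered 210030 in A03, 333831 in A07, 4733121 in A04 and 201137 in A08, and the 4 WT libraries held 73109 to 1905693. Of 13420 mouse genes in the table, 5264 passed the filter on low counts and were tested. A count of 3 reads, taken as the limit of detection, was worth 15.7 CPM (counts scaled to a library total of 1000000 reads, after TMM normalisation) in A03, 8.98 in A07, 0.587 in A04 and 15.6 in A08, so a gene at 0 in A03 or A08 may still have been expressed. The wells were taken as 2 quartets in plate order, A01 to A04 and A05 to A08, and the quartet entered the fit as a block. This pairing is an assumption, since the labels do not say that wells of a quartet shared a culture or a sort, and no source says that the 2 libraries of a group came from separate cultures, so that p-values measure only the spread between these libraries. Library A03 stood apart. Over the 500 most abundant genes, A07 and A08 correlated at r = 0.970 and A03 and A04 at r = 0.922 (Pearson, across genes, log2 CPM), whereas A03 and A07, the 2 pure libraries, correlated at r = 0.855. Values without A03 or the deep library A04 are given beside the results that moved most when these were left out.

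On mixing, no gene of the cancer cells changed past the test. With edgeR's quasi-likelihood test and Benjamini-Hochberg adjustment, 0 of 5264 genes (percent called 0) had an adjusted p under 0.05, with the block or without it. At an unadjusted p under 0.05 there were 112 genes, 85 higher (1.61%) and 27 lower (0.513%) in mixed cells, where a threshold of 0.05 alone gives 263.2 genes, and without the block there were 69. The excess of higher genes was not stable: without A04 there were 39 higher and 93 lower, and limma-voom gave 104 higher and 137 lower. DESeq2 and limma also called 0 genes. Of the fits that left out 1 library, 1 called a gene: without A07 the call was Sprr1a, an envelope protein of squamous epithelium, named after its values were seen, which had 5.25 CPM in A03, 147 in A07, 229 in A04 and 77.8 in A08. With A07 in the fit Sprr1a had an unadjusted p of 0.391 by edgeR. The 500 most abundant genes had a median absolute log2 fold change of 0.25. In bulk RNA, fewer cells of a kind and less RNA per cell cannot be told apart. A design of 2 against 2 libraries cannot give an exact two-sided permutation p below 0.333 for a single value, so intervals from the fit are given instead.

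The most abundant transcript was that of Rpsa, a protein of the small ribosomal subunit on chromosome 9 (120127689 to 120132369). Rpsa stood at 31391 CPM in A03 and 28171 in A07 among pure libraries, and at 24992 in A04 and 33847 in A08 among mixed ones. The mixed libraries were the lowest and the highest of the 4, so the groups overlapped, and the log2 fold change was −0.04 with a 95% interval of −0.72 to 0.65. S100a6, a calcium-binding protein of growing epithelium, was at 8702 (A03) and 7587 (A07) CPM in pure cells and at 9132 (A04) and 8990 (A08) in mixed cells. Both mixed values lay above both pure ones, with a log2 fold change of 0.16 (−0.55 to 0.86). Rplp1, of the ribosomal stalk, had 12827 and 11676 CPM in the pure libraries A03 and A07 and 14331 and 18887 in the mixed libraries A04 and A08. It was the most positive of the 20 most abundant genes, at a log2 fold change of 0.42 (−0.27 to 1.10). At the other end was mtAtp6, a subunit of the mitochondrial ATP synthase, at 13756 CPM in A03, 7628 in A04, 4582 in A07 and 3569 in A08. Here both libraries of quartet 1 lay above both of quartet 2 whatever the culture, and the log2 fold change on mixing was −0.65 (−1.36 to 0.06) and −0.03 without A03. The 20 leading genes comprised 16 ribosomal protein genes, S100a6 and 3 genes of the mitochondrial genome, and took 15.5% to 19.0% of the reads of each cancer library.

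**Figure D1:**
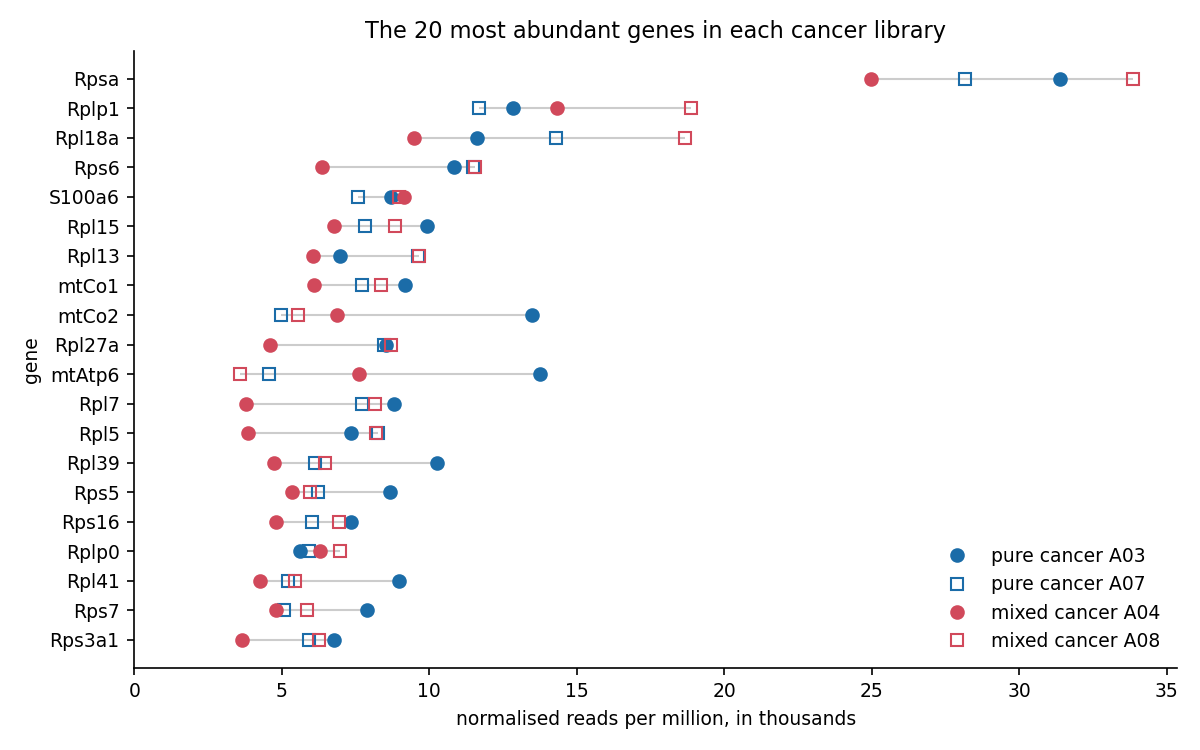
Normalised read level (axis in 1000 CPM) of the 20 most abundant genes in the 2 pure (blue) and 2 mixed (red) cancer libraries, with filled circles for quartet 1 and open squares for quartet 2 and a grey line over the range. A03 is often the highest point and A04 often the lowest, with the 2 libraries of quartet 2 close together, as for Rpl7 at 7734 CPM in A07 and 8149 in A08.

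The size of change that the data exclude was read from the 95% interval of each gene, that is, from the folds that the test of these 8 libraries rejects. The spread behind each interval is mostly borrowed from all tested genes over the 8 libraries, and little of it is the gene's own. For 270 genes (5.13% of those tested) the interval lay within a 2-fold change in either direction, and for 2464 (46.8%) within a 4-fold change. No gene's interval lay within 1.5-fold. The filter ran over all 8 libraries, so a gene could be tested on its WT reads alone, which lowers these shares. In the fit of the 4 cancer libraries alone with the block, 3192 genes were tested. Of these 389 excluded 2-fold and 2358 excluded 4-fold. Among the 500 most abundant genes, at 275 CPM or more, a 2-fold change was excluded for 216 (43.2%) and a 4-fold change for all 500, and the median excluded fold was 2.06. With the deposited estimated transcript counts in place of read counts, 2-fold was excluded for 165 of these 500 and 4-fold for 453. Among the 2000 most abundant, down to 61.3 CPM, a 4-fold change was excluded for 1812 (90.6%). Below that the data thin out. A 4-fold change was excluded for 96.2% of genes at 100 to 300 CPM, 53.3% at 30 to 100 CPM, 5.60% at 10 to 30 CPM and 0% below 10 CPM. An 8-fold change was excluded for 4288 genes (81.5%). Both counts rested on having all 4 cancer libraries. Without the block 91 genes excluded 2-fold and 2469 excluded 4-fold, and when 1 cancer library was left out 18 to 114 excluded 2-fold and 1133 to 1339 excluded 4-fold. Among the 500 most abundant genes 4-fold was excluded for 496 without the block and for 491, 487, 465 and 466 without A03, A04, A07 and A08, but for 222 in the table of molecule barcodes, which saturates at 256 per gene.

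**Figure D2:**
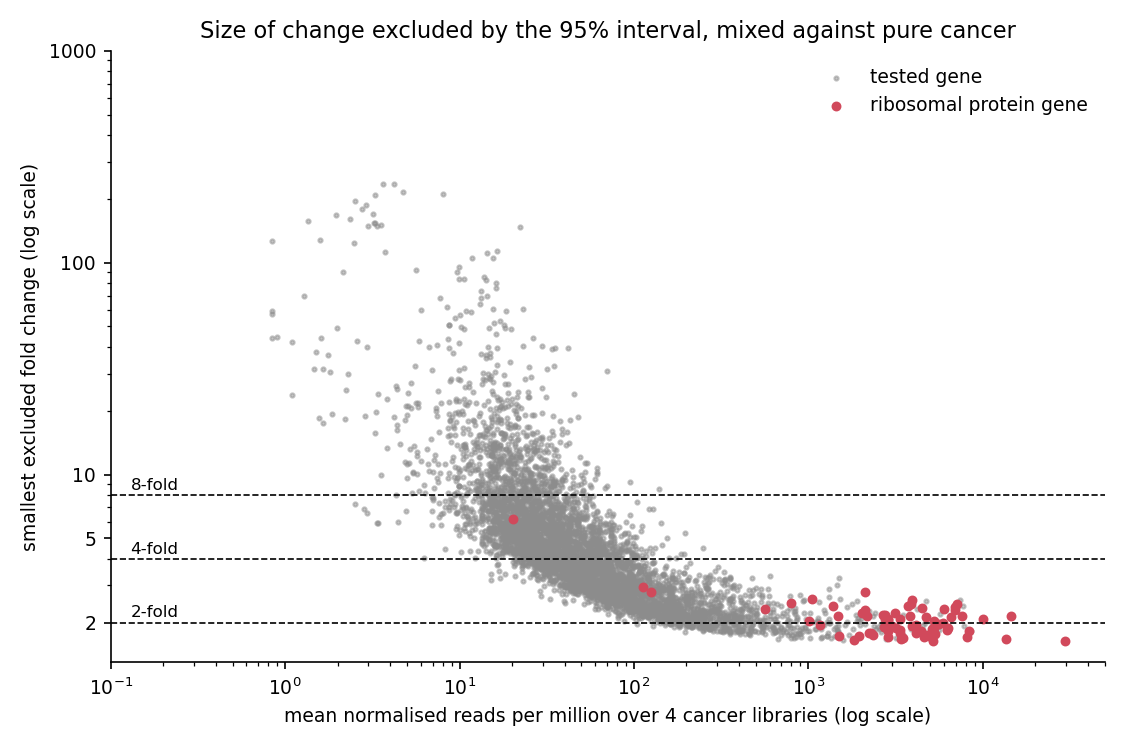
Smallest fold change, in either direction, that lies outside each gene's 95% interval (log scale) against the mean level in CPM over the 4 cancer libraries (log scale), with dashed lines at 2-fold, 4-fold and 8-fold. Ribosomal protein genes (red) sit mostly near the 2-fold line, and genes under 10 CPM lie above the 4-fold line. Genes with an unbounded interval are not drawn.

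Changes on mixing did not correlate between the quartets, whereas differences between the quartets correlated between pure and mixed cells. Over the 500 most abundant genes the change from A03 to A04 correlated with the change from A07 to A08 at r = −0.00222 (across genes, which are not independent replicates), 226 genes (45.2%) had the same sign in both, and 0 differed by more than 2-fold the same way in both. The spread was larger in quartet 1, with a median absolute log2 change of 0.49 against 0.22 in quartet 2, and 49 against 4 genes moved by more than 2-fold. The difference of quartet 2 from quartet 1 measured in pure cells (A07 against A03) correlated with that in mixed cells (A08 against A04) at r = 0.539. These correlations use the same 4 libraries, so each restates part of the other. In 10 genes quartet 2 was more than 2-fold higher in both pure and mixed cells, and in 15 genes quartet 1 was. Txnip, a glucose-responsive binder of thioredoxin, was at 262 and 243 CPM in A03 and A04 and at 1416 and 856 CPM in A07 and A08. Gsto1, a glutathione transferase, was at 457 and 533 CPM in quartet 1 and at 1939 and 1499 CPM in quartet 2. Cdk1, the kinase that starts mitosis, went the other way, at 698 and 710 CPM in quartet 1 and at 314 and 327 CPM in quartet 2, and Pcna, the sliding clamp of DNA replication, stood at 577, 403, 171 and 187 CPM in A03, A04, A07 and A08. For each of these the quartets did not overlap while pure and mixed cells did. They were chosen for that pattern after their values were seen, and it is a description without a test.

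**Figure D3:**
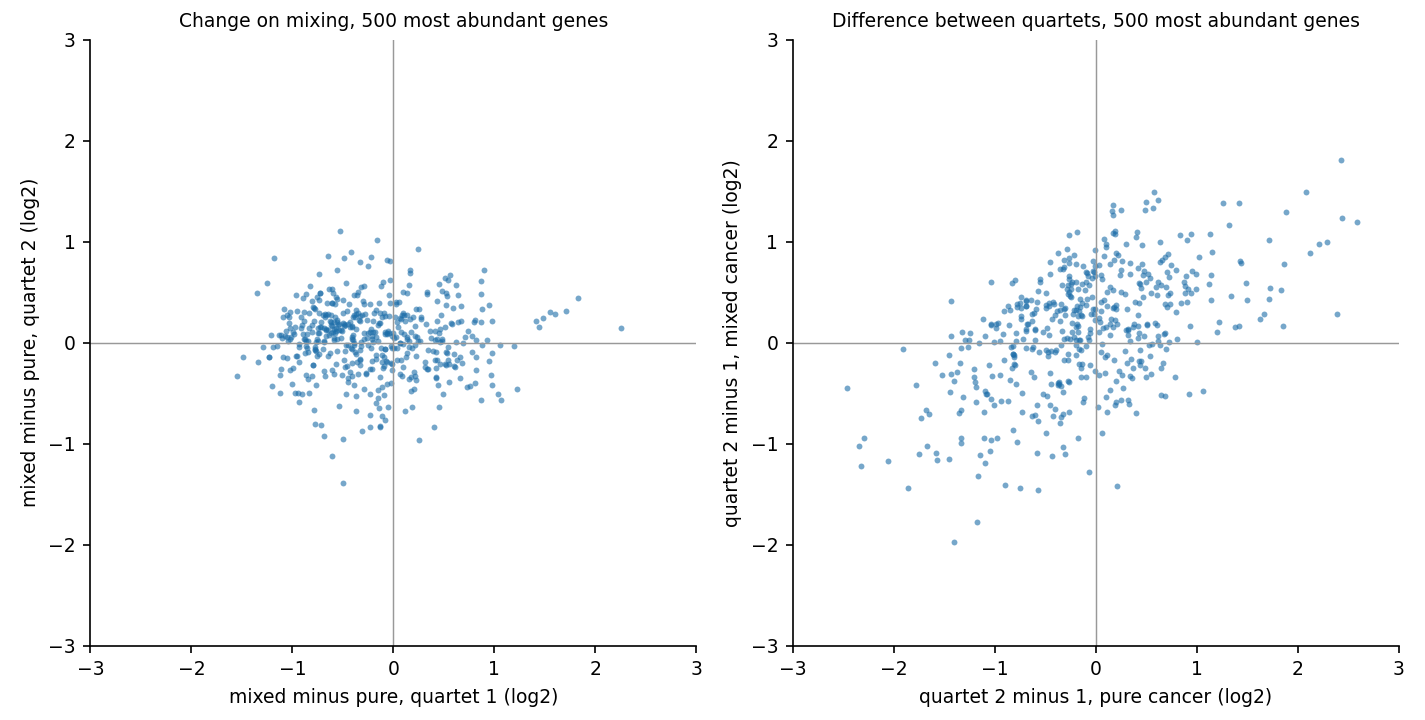
Left, log2 change from pure to mixed cancer in quartet 2 (A08 against A07) against that in quartet 1 (A04 against A03) for the 500 most abundant genes, 1 point a gene. Right, log2 difference of quartet 2 from quartet 1 in mixed cancer against that in pure cancer for the same genes. The left cloud has no slope (r = −0.00222) and is wider along quartet 1, and the right cloud rises (r = 0.539).

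Ribosomal proteins, mitochondrially encoded genes and the nuclear-encoded respiratory chain were the lists with the lowest medians among those with a median level of 20 CPM or more. Of 73 ribosomal protein genes tested 68 had a negative log2 fold change, against 2384 of 5264 over all tested genes. They had a median of −0.26, against 0.07 over all tested genes, and 0 were called, as over all tested genes. The median was −0.67 in quartet 1 and 0.08 in quartet 2. It was −0.01 without A03, −0.01 without A04, −0.47 without A07 and −0.39 without A08. Ribosomal protein genes took 32.6% of reads in A03 and 26.0% in A04, and 31.8% in A07 and 33.8% in A08, so that pure and mixed cells overlapped. A 4-fold change was excluded for 72 of the 73 and a 2-fold change for 38. All 14 tested mitochondrial genes were negative, with a median of −0.45, which was −0.86 in quartet 1, 0.06 in quartet 2, 0.38 without A03 and −0.97 without A07. The mitochondrial share of all reads was 6.82% in A03, 4.32% in A04, 2.86% in A07 and 2.95% in A08. Both libraries of quartet 1 lay above both of quartet 2, and within quartet 1 the mixed library A04 lay below the pure library A03. The part of this share in these medians was not tested. The 85 tested genes of the nuclear-encoded respiratory chain had a median of −0.25, with 63 negative, and it ran from −0.37 without A07 to 0.10 without A03. Ndufc2, a subunit of respiratory complex I, had the only unadjusted p under 0.05 among them, at 3133, 1113, 913 and 830 CPM in A03, A04, A07 and A08. Only A03 was high. The log2 fold change was −0.94 (−1.70 to −0.19, unadjusted p = 0.015 by edgeR) and 0.02 without A03.

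Genes of epithelial identity had 0 calls, the same as over all 5264 tested genes. Krt8 and Krt18, the keratin pair of simple epithelia, had log2 fold changes of −0.07 (−0.81 to 0.66) and 0.29 (−0.44 to 1.02). Krt8 was at 1753 and 1778 CPM in the pure libraries A03 and A07 and at 2013 and 1292 CPM in the mixed libraries A04 and A08. The mixed values lay on both sides of the pure ones. Krt7, a keratin of simple and ductal epithelia, was at 3191 and 3592 CPM in pure and 3431 and 3818 CPM in mixed cells, at 0.10 (−0.61 to 0.80). Epcam, the pan-epithelial adhesion molecule, was at 268 CPM in A03 and at 391, 428 and 415 CPM in A04, A07 and A08. Cdh1, which encodes E-cadherin, was at 63.0 CPM in A03 and at 257, 389 and 368 CPM in A04, A07 and A08. In both genes A03 alone was low, and the change on mixing was 0.29 (−0.51 to 1.09) for Epcam and 0.72 (−0.18 to 1.63) for Cdh1. Without A03 these were 0.25 and 0.01, and without A04 the Epcam value was −0.08. Of 34 junction and adhesion genes 24 were positive, against 2880 of 5264 over all tested genes. The median of the list was 0.25 (0.51 in quartet 1, −0.08 in quartet 2, −0.07 without A04, 0.74 without A08). Cd24a, a glycosylated surface protein, had the only unadjusted p under 0.05 in that list. Cd24a stood at 383 and 476 CPM in pure and 251 and 218 CPM in mixed cells, without overlap, at −0.84 (−1.67 to −0.02).

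Of the lists with a median level of 20 CPM or more, Wnt targets had the highest median, at 0.69 on the log2 scale over 17 tested genes. Of these 13 were positive, against 2880 of 5264 over all tested genes, and 0 were called, as over all tested genes. The quartets gave medians of 1.05 and 0.21, and the median stayed positive under every alternative run, from 0.32 without A04 to 1.19 without A07. A 4-fold change was excluded for 7 of the 17, whose median level was 43.3 CPM. Axin2, a negative-feedback target of β-catenin on chromosome 11 (108920349 to 108950783), was at 52.5 CPM in A03 and 68.8 in A07, and at 115 in A04 and 275 in A08. Both mixed libraries lay above both pure ones, with a log2 fold change of 1.60 (0.44 to 2.78, unadjusted p = 0.0075 by edgeR), which does not pass the correction over all genes. Its estimate ran from 1.08 to 1.97 over the alternatives. Lgr5, the R-spondin receptor of crypt stem cells, had 0 reads in A03, where the limit was 15.7 CPM, and 39.5, 32.9 and 57.1 CPM in A04, A07 and A08. The mixed libraries were higher, at 1.92 (0.07 to 3.90), and the value was 1.25 without A03 and 1.13 without A04. Ascl2, the transcription factor of crypt stem cells, was at 36.7 and 32.9 CPM in pure and 77.9 and 88.2 CPM in mixed cells, at 1.25 (−0.06 to 2.60). It was named after its values were seen. Ccnd1, which encodes cyclin D1, was at 236 and 368 CPM in pure and 433 and 425 CPM in mixed cells, at 0.54 (−0.31 to 1.40).

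Stem cell markers did not move one way. Of 14 tested, 11 were positive, against 2880 of 5264 over all tested genes, with a median of 0.52 (0.65 and 0.09 in the quartets). The median was 1.21 without A03, 0.18 without A04, 0.94 without A07 and 0.98 without A08. Axin2 and Lgr5 had an unadjusted p under 0.05 upward, and Hopx and Gkn3, named after their values were seen, had it downward. Axin2, Lgr5, Ascl2, Slc12a2, Sox9 and Tnfrsf19 are in the Wnt list as well, so these lists are not separate evidence. Hopx, a marker of reserve stem cells, was at 31.5 and 23.9 CPM in pure and 8.61 and 5.19 CPM in mixed cells, without overlap, at −1.70 (−3.13 to −0.24). Gkn3 was at 36.7 and 18.0 CPM in pure and 4.70 and 10.4 CPM in mixed cells, at −1.88 (−3.72 to −0.03). Both lay below the detection limit in A08. Sox9, a Wnt-dependent factor of progenitors, was at 20.99 CPM in A03 and 86.1, 138 and 130 CPM in A04, A07 and A08, so that again A03 alone was low, and the log2 fold change was 0.67 with all libraries and 0.01 without A03. Igfbp4, which binds insulin-like growth factors, was the best measured of the list. It had 735 and 919 CPM in pure and 1017 and 1110 CPM in mixed cells, at 0.38 (−0.40 to 1.15).

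The fetal-like, repair and YAP list had a median level of 186 CPM in the cancer libraries, against 43.1 CPM over all tested genes, and 18 of its 24 tested members excluded a 4-fold change. Ly6a, on chromosome 15 (74994877 to 74998031), was the 21st most abundant gene of these cells. It stood at 4167 CPM in A03 and 3511 in A04, and at 7429 in A07 and 7340 in A08. The level followed the quartet and the pure and mixed values overlapped, with a log2 fold change of −0.12 (−0.89 to 0.64). Clu, which marks damage-induced revival stem cells, was at 378 and 2056 CPM in pure and 1010 and 2386 CPM in mixed cells, at 0.79 (−0.01 to 1.60), and at 0.38 without A03 and 0.39 without A04. Anxa1, an annexin of repairing epithelium, was at 672 and 494 CPM in pure and 451 and 425 CPM in mixed cells, at −0.41 (−1.24 to 0.43). Over the list 20 of 24 values were positive, against 2880 of 5264 over all tested genes. The list had 0 called, as over all tested genes, and 0 at an unadjusted p under 0.05, against 112 of 5264. Its median was 0.29 (0.71 and 0.19 in the quartets, −0.03 with the saturated barcode counts, 0.93 without A07 and 0.60 without A08). The 11 annexins tested had a median of 0.11. Beside it stood Ly6c1, a relative of Ly6a, at 68.2 and 207 CPM in pure and 88.1 and 182 CPM in mixed cells. Reads that mapped equally well to several places were discarded, so reads from stretches that family members share may be lost.

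Lists of MAPK, p53 and stress signalling had 0 calls, as had all 5264 tested genes, so this does not set them apart. The 11 tested MAPK genes had a median of 0.49 (0.73 and 0.21 in the quartets, 0.01 without A03, 0.88 without A07). Of them 9 were positive, against 2880 of 5264 over all tested genes. Phlda1, induced by growth factor signalling, was at 168 and 287 CPM in pure and 207 and 394 CPM in mixed cells, at 0.37 (−0.53 to 1.27), and Emp1, a membrane protein of the same list, was at 105 and 281 CPM in pure and 223 and 415 CPM in mixed cells, at 0.79 (−0.14 to 1.72). In both genes each quartet had the mixed library above the pure one while the groups overlapped. The 11 tested p53 targets had a median of −0.01, which was 0.38 without A03. Cdkn1a, which encodes the cell cycle inhibitor p21, was at 105 and 38.9 CPM in pure and 133 and 62.2 CPM in mixed cells, at 0.52 (−0.54 to 1.60). AP-1 and JNK genes, the stress-activated transcription factors and kinases, had a median of 0.25 over 13 (0.54 and −0.03 in the quartets, −0.02 without A03, 0.66 without A07). Junb, the best measured of them, was at 467 and 1030 CPM in pure and 680 and 913 CPM in mixed cells, at 0.16 (−0.66 to 0.97).

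Proliferation genes had 0 calls, as had all 5264 tested genes. The 42 tested genes of DNA replication and mitosis had a median of 0.04, with −0.02 in quartet 1 and 0.01 in quartet 2, although it ran from −0.31 without A04 to 0.42 without A03. A 4-fold change was excluded for 33 of the 42. Tubb5, a β-tubulin, was at 2241 and 2308 CPM in pure and 2414 and 2786 CPM in mixed cells, at 0.19 (−0.51 to 0.90). Mki67, the common proliferation marker, was too low to judge at 26.2 and 2.99 CPM in pure and 15.8 and 15.6 CPM in mixed cells. Its interval ran from −2.48 to 3.28. The 18 tested genes of the Myc and ribosome biogenesis list had a median of 0.04, and Ran, the GTPase of nuclear transport, stood at 1359 and 503 CPM in pure and 870 and 913 CPM in mixed cells, at −0.01 (−0.78 to 0.77).

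Lists of metabolism and protein handling also had 0 calls, again the same as over all 5264 tested genes. The 16 tested glycolytic genes had a median of 0.09, and 15 of them excluded a 4-fold change. Ldha, which turns pyruvate into lactate, was at 6550 and 6006 CPM in A03 and A04 and at 3185 and 3071 CPM in A07 and A08. The quartets did not overlap, and the log2 fold change on mixing was −0.09 (−0.78 to 0.60). Aldoa, of the same pathway, had −0.07 (−0.79 to 0.64) and Pgk1 had −0.18 (−0.87 to 0.52). Chaperones had a median of −0.02 over 22 genes, with Hspa8 at 0.02 (−0.69 to 0.73). Oxidant defence genes had −0.14 over 28, the proteasome −0.24 over 35, translation factors −0.17 over 46, splicing factors 0.07 over 40, endoplasmic reticulum stress genes 0.10 over 20 and cholesterol synthesis 0.17 over 22. Of these medians that of the translation factors alone kept its sign under every alternative. Gstm1, a glutathione transferase of the oxidant defence list, was at 78.7 CPM in A03 and 261, 482 and 602 CPM in A04, A07 and A08. Both libraries of quartet 1 lay below both of quartet 2, with A03 the lowest. The log2 fold change was 0.90 (0.08 to 1.72, unadjusted p = 0.032 by edgeR) and 0.45 without A03.

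Genes by which cells could act on their neighbours were mostly low. Of 55 listed secreted and membrane signals 17 were tested, and 15 of them were positive, against 2880 of 5264 over all tested genes. Their median was 0.48, with 1.16 in quartet 1 and 0.00 in quartet 2. It was 0.29 without A03, 0.25 without A04, 1.32 without A07 and 0.74 without A08. A 4-fold change was excluded for 6 of the 17. Mif, a cytokine, was the best measured, at 1669 and 1931 CPM in pure and 2017 and 2303 CPM in mixed cells. Both mixed values were above both pure ones, by 0.26 on the log2 scale (−0.44 to 0.97). Lgals3, a secreted galectin, was at 1071 and 646 CPM in pure and 1074 and 669 CPM in mixed cells, at 0.02 (−0.79 to 0.82). The 13 tested cell competition regulators had a median of 0.21 (0.40 and −0.08 in the quartets, −0.51 without A03, 0.85 without A07). Interferon response and antigen presentation genes had 0.19 over 20 (−0.14 without A04, 0.60 without A08), with H2-K1, a classical class I molecule, at 378 and 557 CPM in pure and 729 and 721 CPM in mixed cells. The H2-K1 groups did not overlap, at 0.65 (−0.12 to 1.42). Cell death genes had a median of 0.09 over 20 (0.49 without A03), and Cycs, which encodes cytochrome c, stood at 2435, 1171, 485 and 503 CPM in A03, A04, A07 and A08, at −0.56 (−1.32 to 0.19) and at 0.04 without A03.

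Most markers of differentiated intestinal cells were below the detection limit of the shallow cancer libraries. The 16 tested enterocyte genes had a median level of 0.521 CPM and 0 of them excluded a 4-fold change. The highest was Vil1, which encodes villin, at 57.7 and 56.9 CPM in pure and 123 and 83.0 CPM in mixed cells, at 0.93 on the log2 scale. Enteroendocrine and tuft cell genes had a median level of 0.196 CPM. The medians of these 2 lists, 0.12 and 2.16 on the log2 scale, are poorly determined at such levels. Among Paneth cell genes Mmp7, a matrix metalloprotease, was well measured at 478 and 829 CPM in pure and 523 and 861 CPM in mixed cells, at 0.07 (−0.74 to 0.88). Among goblet cell genes Spink4 was at 1102 and 805 CPM in pure and 449 and 783 CPM in mixed cells, at −0.65 (−1.43 to 0.12). The goblet list of 9 tested genes had a median level of 1.54 CPM.

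**Figure D4:**
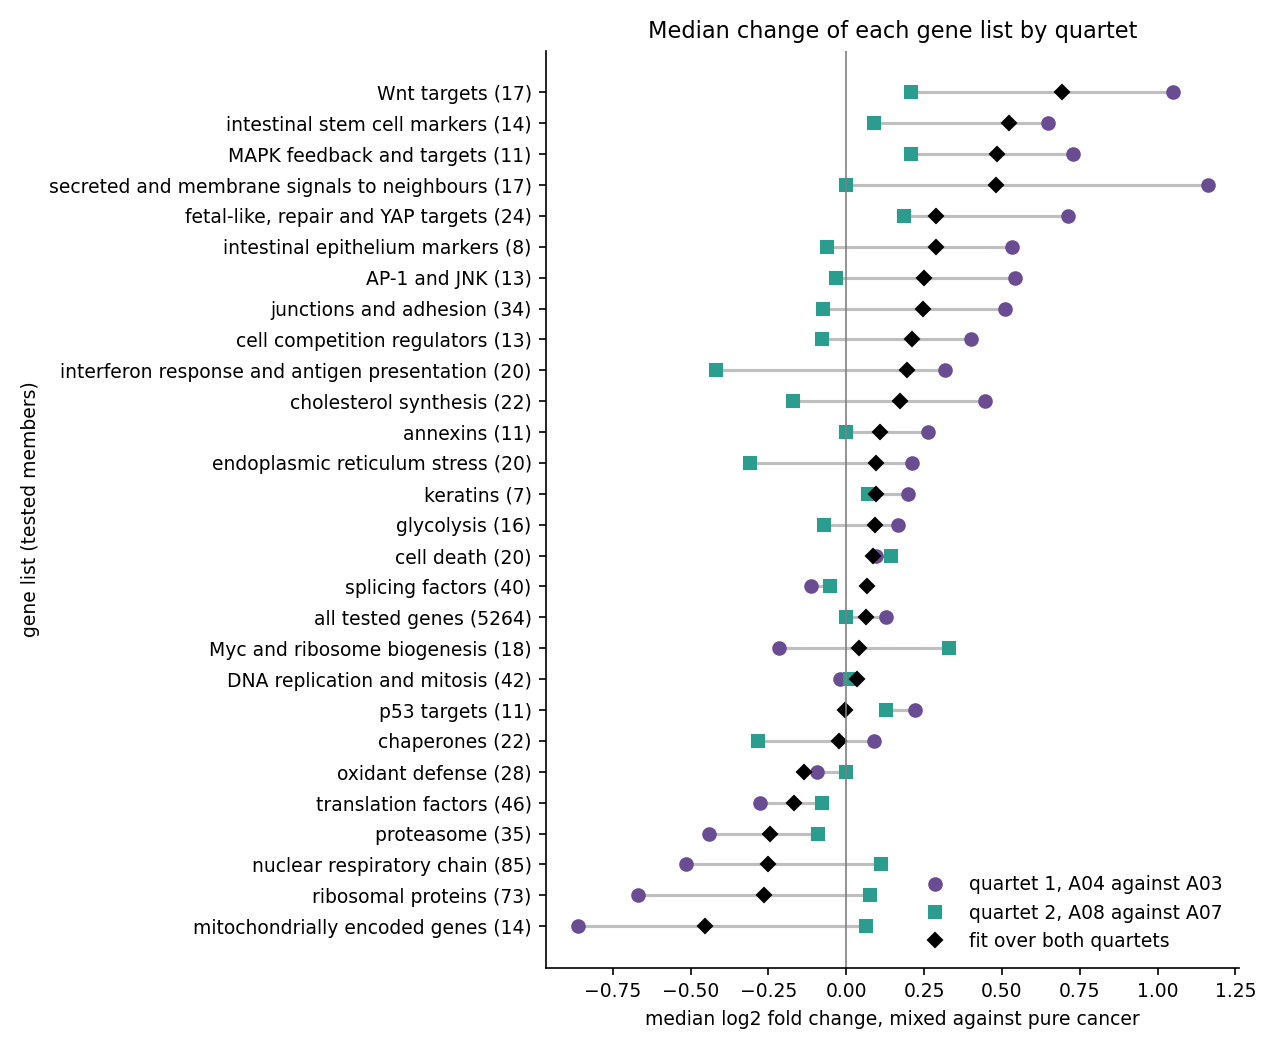
Median log2 fold change, mixed against pure cancer, of each gene list (number of tested members in brackets) in quartet 1 (circles), quartet 2 (squares) and the fit over both (diamonds), with all tested genes as a row of their own. Lists with a median level under 20 CPM are not drawn. Quartet 1 spans −0.86 to 1.16, and quartet 2 spans −0.42 to 0.33.

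Genes with a small p included many with few reads in pure cells. Of the 85 genes higher at an unadjusted p under 0.05, 37 had 3 reads or fewer in the 2 pure libraries together and 16 had 0, and 5 were among the 500 most abundant. Of the 27 lower, 1 had 3 reads or fewer in pure cells and 4 were among the 500 most abundant. Among genes with a mean of 50 reads or more, Acvr1, a BMP and activin type I receptor, had the smallest p, with 0 reads in A03, 26.9 CPM in A07, 35.8 in A04 and 218 in A08. Both mixed libraries were higher, at 3.06 (1.29 to 4.95, unadjusted p = 0.000879 by edgeR). In the fit of the 4 cancer libraries alone with the block, Acvr1 had the smallest adjusted p of 3192 genes. It was 0.0797 by edgeR's quasi-likelihood test with Benjamini-Hochberg adjustment, which is not a call. Ucp2, a mitochondrial carrier, was at 47.2 and 56.9 CPM in pure and 143 and 124 CPM in mixed cells, without overlap, at 1.43 (0.47 to 2.41). Pcsk6, a proprotein convertase, was at 10.5 and 123 CPM in pure and 117 and 306 CPM in mixed cells, at 1.83 (0.59 to 3.10), with overlap. Cox15 and Rsu1 were the other genes of this rule that were higher. Downward the smallest p belonged to 1110058L19Rik, at 252 and 83.8 CPM in pure and 84.7 and 25.9 CPM in mixed cells. The groups overlapped, at −1.48 (−2.52 to −0.43). The other genes of this rule that were lower were mtNd4l, Ndufc2, Mrps33 and Cops6. Over the alternatives 1110058L19Rik ran from −2.08 to −0.49, and mtNd4l, at −1.24 in the main fit, from −1.91 to 0.05. These 10 genes are the extremes of all genes with that depth. Cops6, a subunit of the COP9 signalosome, was at 336 and 192 CPM in pure and 191 and 51.9 CPM in mixed cells, at −1.12 (−2.07 to −0.17).

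The change of cancer cells was set against that of the WT cells with which they were mixed. WT cells had 119 genes called (2.26%), 87 higher and 32 lower, and without the block 39. Without the mixed WT library A06 the directions turned, to 24 higher and 60 lower. The difference between the changes was tested in the same fit. It was called for 30 genes, 6 that rose more in cancer cells (0.114%) and 24 that rose more in WT cells (0.456%), and without the block for 4. Without A06 that split turned too, to 58 that rose more in cancer cells and 14 in WT cells. Ly6d, an Ly6 family protein on chromosome 15 (74762056 to 74763620), was at 142, 89.6, 126 and 156 CPM in A03, A04, A07 and A08. In WT cells it was at 7.32 and 3.37 CPM in pure and 197 and 369 CPM in mixed libraries. The WT groups did not overlap and the cancer groups did. Its cancer change was −0.19 (−1.23 to 0.85) and its WT change 5.79, a difference of −5.98 (adjusted p = 5.7e-07, edgeR's quasi-likelihood test with Benjamini-Hochberg adjustment). Ly6a in WT cells was at 114 and 46.7 CPM in pure and 459 and 1969 CPM in mixed libraries, without overlap. For Ly6a the WT change was 3.64 and the difference −3.77 (adjusted p = 1.52e-05). Among the 24 fetal-like, repair and YAP genes WT cells had a median change of 2.49 with 12 called, against 0.29 with 0 called in cancer cells (0.27 to 0.93 when 1 cancer library was left out), and the difference was called for 4. That list follows a program the study described in WT cells of these samples, so its WT count is not independent evidence. For DNA replication and mitosis the medians were −0.90 in WT and 0.04 in cancer cells, and the difference was called for 0 of 42. Axin2 differed the other way, with a WT change of −3.12 and a difference of 4.72 (adjusted p = 0.00316), although without the block the adjusted p was 0.165.

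**Figure D5:**
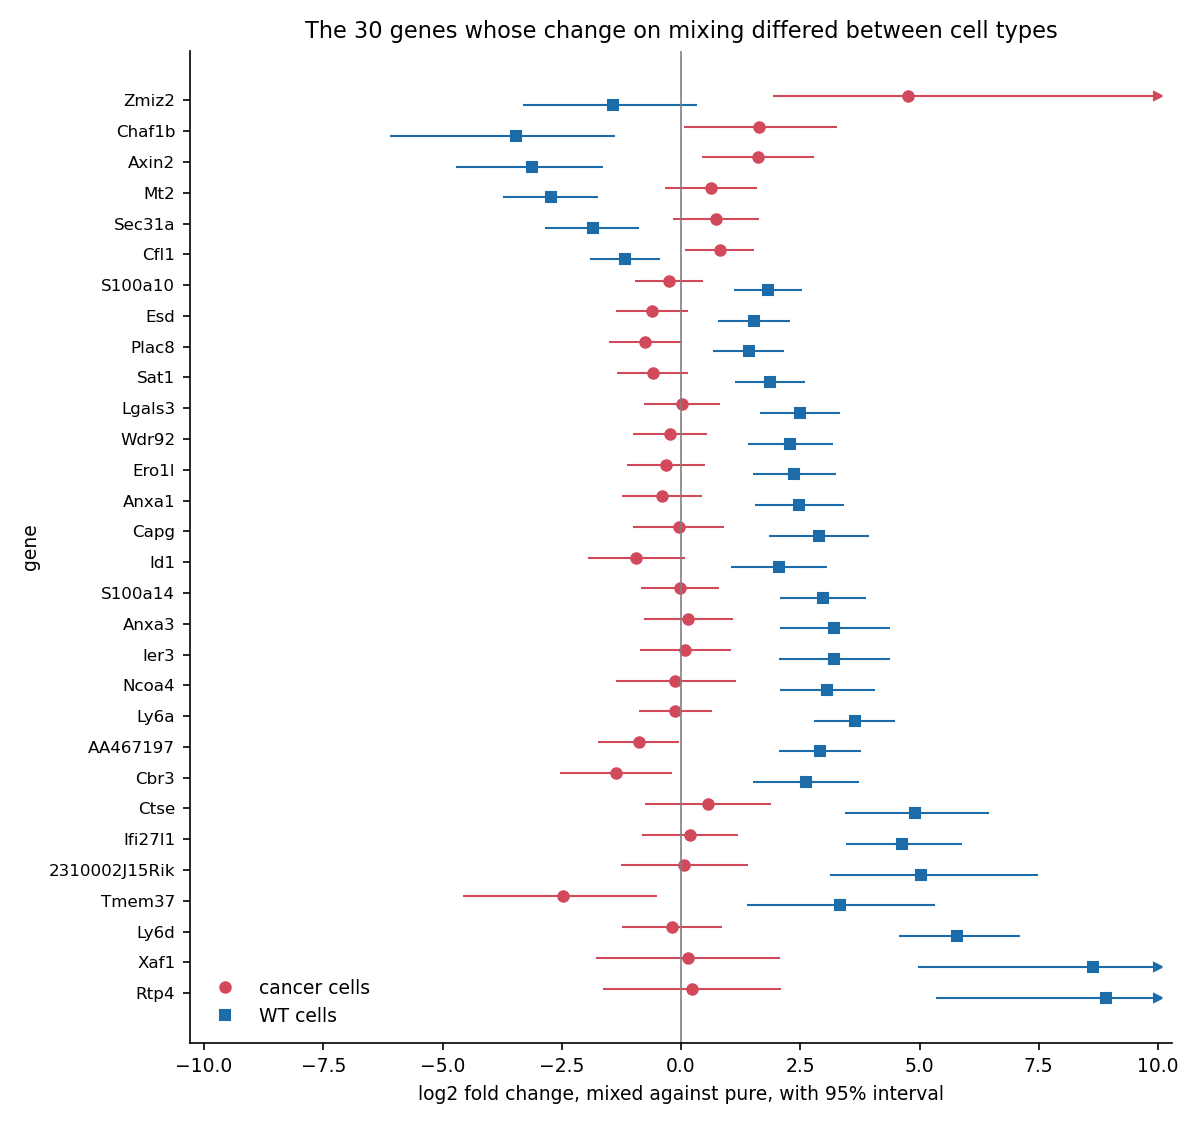
Log2 fold change, mixed against pure, with its 95% interval in cancer cells (red circles) and in WT cells (blue squares) for the 30 genes whose change differed between them at an adjusted p under 0.05. Cancer values run from −2.47 for Tmem37 to 4.76 for Zmiz2, with Ly6d at −0.19 beside 5.79 in WT cells. Arrowheads mark intervals that run past the axis.

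Other cells left little trace in the cancer libraries. Of 6 immune, 6 fibroblast and 6 endothelial and muscle markers, 1 of each list was in the table, with 0, 1 and 13 reads over the 4 cancer libraries, and all 8 intestinal epithelium markers were tested. Anxa10, which was at 1324 CPM in mixed and 103 CPM in pure WT cells, served as a trace of WT cells in the cancer sort. It was chosen with its low level in pure cancer cells known, and it would undercount WT cells that had the pure WT level. Anxa10 was at 5.25 CPM in A03 and 2.99 in A07, the pure cancer libraries, both below their limits of 15.7 and 8.98 CPM. It was at 3.13 CPM in A04. Its level in A04 was 0.236% of that in mixed WT cells, and A08 had 0 reads, where the limit was 1.18%. Cdx1 and Cdx2, the caudal-type factors of intestinal identity, were low, with 0.783 CPM of Cdx1 in A04 alone and Cdx2 at 26.2, 4.89, 2.99 and 0 CPM in A03, A04, A07 and A08. A 3' tag outside the deleted exons does not check the genotype. For Apc there were 2 reads in A03, 22 in A04 and 0 in A07 and A08. Trp53 was at 5.25 and 71.8 CPM in pure and 67.3 and 46.7 CPM in mixed cells, at 1.04 (−0.24 to 2.37), and at 0.34 without A03 and −0.30 without A04.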

How the data were processed

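CEL-Seq libraries of 8 sorted organoid samples, 2 in each of 4 groups, were analysed. Per the labels and the study's methods, the authors aligned reads to the mm10 RefSeq transcriptome with BWA, discarded reads that mapped equally well to several places and counted genes with featureCounts (versions not given in the sources used here). The authors deposited read counts per gene, with amplification copies included, and molecule barcode counts, which end at 256 per gene. A further deposited table gives estimated counts, which the authors computed per gene by correcting the barcode numbers for repeated draws. The submitters' processing notes name DESeq2 1.22.2. The authors' own table of WT results, which holds fold changes and p-values, was not used, and 0 per-sample columns were left unmapped. The entries eGFP (1 read in all) and ERCC-00046 (0 reads) were left out.

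Read counts were filtered with filterByExpr at a minimum count of 10, scaled by TMM and fitted with edgeR 4.0.16 (R 4.3.3) by quasi-likelihood over 8 libraries, with terms for group and quartet and Benjamini-Hochberg adjustment at 0.05. The fit had 3 residual degrees of freedom and a common biological coefficient of variation of 35.7%. To these 3 the test added a mean of 91.2 prior degrees of freedom (19.3 without the block). The prior comes from the spread shared over all tested genes and 8 libraries, WT included, so a gene's own spread weighs little in its interval. A gene's 95% interval holds the folds that the same test does not reject. CPM are the read counts divided by TMM-scaled library size, quartet changes are differences of log2 CPM with a prior count of 2, and limits of detection are 3 reads. Intervals and limits cover no error other than the spread between libraries and counting, and reads are not independent molecules. DESeq2 1.42.0 and limma 3.58.1 were alternatives, with estimated transcript counts rounded to whole numbers. The statistics were first tested on simulated counts that had no quartet effect, so that test does not cover the quartet differences seen here. Positions are from GENCODE M21 for GRCm38, the same assembly as mm10, in which 181 of 184 named genes were found.

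Whether same-quartet libraries deviate together was checked over the 1000 most abundant genes: the 6 correlations of deviations from group means were all positive, from 0.108 to 0.527. With 2 quartets this does not establish pairing. Named genes were the 20 most abundant, any called gene, the 5 smallest p in each direction at a mean of 50 reads or more, the 3 most abundant members of each list and its largest change, and genotype and marker genes, of which 1 item is not reported here. The comparison, the members and the lists were chosen with earlier results of these data known.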

Additional observations from a re-analysis of the deposited data

Results flagged for a closer look

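The change on mixing differed between cancer and WT cells by a test of the difference itself for 30 genes, and 6 of these belong to the genes named by rule. The difference in log2 change, cancer minus WT, was −5.98 for Ly6d, −3.77 for Ly6a, −2.89 for Anxa1, −2.47 for Lgals3, −3.12 for Ier3 and 4.72 for Axin2. Over 19 settings the difference for Ly6d was called in 19, from −6.73 to −4.65, that for Ly6a in 18, from −5.19 to −2.63, and that for Axin2 in 17, from 4.43 to 11.2. Anxa1 was called in 12 of the 19, Lgals3 in 10 and Ier3 in 8, each with the same sign throughout. Without the block Ly6d and Ly6a kept an adjusted p under 0.05 in edgeR's test, at 0.00224 and 0.0386, while Anxa1 stood at 0.255, Lgals3 at 0.570, Ier3 at 0.466 and Axin2 at 0.165. In the mixed WT library A02, which had the fewest reads of all, Axin2 had 0 reads. The part of depth in these differences was not tested.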

How the results depend on the processing

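Leaving out the replicate block kept 0 calls in cancer cells, took the calls in WT cells from 119 to 39, those of the difference from 30 to 4 and the 2-fold exclusions from 270 to 91. Only 2 quartets exist and their pairing is assumed from well order. Leaving out 1 library at a time gave 0 to 1 calls in cancer cells, 18 to 123 in WT cells, 5 to 72 for the difference, 18 to 432 genes excluding 2-fold, 1133 to 2902 excluding 4-fold and a median absolute change of the 500 most abundant genes of 0.22 to 0.41. There the lone library of a group is assumed to vary like the others. The 1 call came without A07. For the difference the count was 47, 14, 8, 12, 72 and 5 without A02, A03, A04, A05, A06 and A08, with more of the calls higher in cancer cells without A06 (58 of 72) than with it (6 of 30), and for WT cells 18 without A05 and 77 without A08. Counts at an unadjusted p under 0.05 were 112 in cancer, 588 in WT cells and 464 for the difference. Transcript counts gave 196 calls in WT cells, 49 for the difference and 501 genes excluding 2-fold. Median-of-ratios factors gave 48 for the difference, as did upper-quartile factors (48), DESeq2 with the block (48), and voom gave 70. No filter gave 11 and 68 in WT cells, and the newer quasi-likelihood method of edgeR, added after seeing the data, gave 12. DESeq2 without the block called 73 in WT cells and excluded 2-fold for 123 genes, voom 182 and 571, and the 4 cancer libraries alone without the block excluded it for 25. A minimum count of 50 left 1543 genes, of which 1381 excluded 4-fold. Barcode counts, which saturate, gave a median absolute change of 0.64. The older quasi-likelihood method, listed as an alternative, is what was run throughout. Of 2883 alternative values of 141 named genes 396 moved beyond the spread, and of 649 list medians 139 did. The median of all genes' log2 fold changes ran from −0.11 without A04 to 0.40 without the filter, against 0.07. Depth limits what can be excluded: below 10 CPM 140 of 339 genes had an unbounded interval.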
